A study of Mus musculus with 115 samples.

Results

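The genes described here are 42 autosomal genes of the DNA replication machinery, out of 45699 genes in the expression table. They were taken by name from a list that covers replication licensing, the helicase, the clamp and its loader, the polymerases and nucleotide supply, and each symbol matched 1 identifier in the table. The table holds RNA-seq libraries from prostates of male (TRAMP x WSB/EiJ) F2 mice, and the labels place all of them in 1 group. They do not state that each library is a separate mouse, and the study's methods describe fewer mice with RNA-seq than there are libraries in the table. The n given below therefore counts libraries and may exceed the number of mice, and p-values measure only the spread between libraries. The libraries W7822 and W78022 have nearly the same name but different values (r = 0.955 over genes averaging 1 TPM or more, with 251 of all 6555 pairs of libraries more alike). Every mouse was transgene positive and came from a cross between C57BL/6J TRAMP and the wild-derived inbred strain WSB/EiJ. TRAMP mice express the SV40 T-antigen from a minimal probasin promoter, which is active in the prostate epithelium and depends on androgen. The mice were followed for 210 days or to a humane end point, and prostates under 1 g gave RNA from the ventral prostate alone, so libraries can differ in the region sampled. No library without the transgene was analysed here.

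Replication begins when the origin recognition complex, Cdc6 and Cdt1 load the MCM2-7 ring onto DNA in G1, and geminin (Gmnn) blocks Cdt1 after S phase has begun. Cdc45 and the GINS complex turn the ring into the active helicase, RPA coats the single strands, primase and DNA polymerase alpha lay down primers, and the polymerases delta and epsilon extend them with the sliding clamp PCNA, which the RFC complex loads. Fen1 and Lig1 finish the lagging strand, CAF-1 places histones on the new DNA, and ribonucleotide reductase (Rrm1 and Rrm2), thymidylate synthase, thymidine kinase and Dut supply the nucleotides. Most of these genes are targets of E2F factors, which are held back by the retinoblastoma protein, and SV40 T-antigen binds that protein.

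The 250 bases before the RefSeq transcription start (GRCm38.p6) are shown for 2 subunits of the MCM ring, which moved together across libraries, and for the large and small subunits of ribonucleotide reductase, whose ratio differed between sets of libraries. Mcm5 is from chr8:75109259-75109508 on the plus strand, Mcm6 from chr1:128359706-128359955 on the minus strand, Rrm1 from chr7:102441445-102441694 and Rrm2 from chr12:24708004-24708253, both on the plus strand. Capitals mark letters of 2 searched motifs, on either strand, and the sequences read 5′ to 3′ in the direction of the gene.
Mcm5: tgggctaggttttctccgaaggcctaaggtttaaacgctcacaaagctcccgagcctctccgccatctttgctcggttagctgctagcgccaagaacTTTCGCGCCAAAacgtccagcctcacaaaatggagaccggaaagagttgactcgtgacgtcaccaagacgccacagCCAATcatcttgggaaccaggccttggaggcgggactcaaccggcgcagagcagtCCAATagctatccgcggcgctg
Mcm6: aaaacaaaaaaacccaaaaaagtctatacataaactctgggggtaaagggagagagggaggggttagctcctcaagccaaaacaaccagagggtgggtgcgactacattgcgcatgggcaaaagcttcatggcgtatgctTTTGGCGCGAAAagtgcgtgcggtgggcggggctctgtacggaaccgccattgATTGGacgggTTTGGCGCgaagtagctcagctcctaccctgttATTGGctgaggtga
Rrm1: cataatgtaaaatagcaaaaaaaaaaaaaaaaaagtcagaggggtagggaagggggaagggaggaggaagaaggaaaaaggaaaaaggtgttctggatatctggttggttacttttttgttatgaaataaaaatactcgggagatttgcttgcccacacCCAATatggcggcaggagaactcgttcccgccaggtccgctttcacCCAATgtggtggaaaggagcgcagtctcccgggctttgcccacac
Rrm2: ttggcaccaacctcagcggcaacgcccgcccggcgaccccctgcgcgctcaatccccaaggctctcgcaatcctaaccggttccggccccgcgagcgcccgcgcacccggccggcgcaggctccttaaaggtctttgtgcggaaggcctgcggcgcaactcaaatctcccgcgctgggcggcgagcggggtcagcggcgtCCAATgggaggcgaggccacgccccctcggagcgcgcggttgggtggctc
The first motif was 1 of the E2F-type words TTTCCCGC, TTTGGCGC, TTTCGCGC and TTTGCCGC, and the second was CCAAT. RefSeq held promoters for 34 of the 42 genes, 40 promoters in all. An E2F-type word was in 17.5% of these 40 and in 1.86% of all 32851 RefSeq promoters of the same length, and it was found for Cdc6, Gins3, Mcm5, Mcm6, Mcm7, Orc1 and Rfc3. In Mcm5 and once in Mcm6, 2 such words on opposite strands overlapped in 1 stretch. CCAAT was in 55% of the 40 and in 33.9% of all. The word TTTGAA, the cell cycle homology region, was in 12.5% and in 15.99%. Neither printed reductase promoter held an E2F-type word within this window, and both held CCAAT.

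Values are TPM, a library's transcript levels scaled to a fixed total, which divide by transcript length and can be compared between genes, but keep no sequencing depth, so the counting precision of each value is unknown. Per the labels, each library was sequenced to 43 M or more pairs of 126-base reads (M, mega). Between 10358 and 15824 genes reached 1 TPM per library, and the 20 genes with the largest share took 48.9% to 81.8% of the TPM. With the 42 genes left out, the leading principal component of 14581 genes averaging 1 TPM or more split the libraries into a set of 79 and a set of 36 (Ashman D of 6.04, and a BIC lower by 198 for a pair of components than for 1). These are not groups of the study, so they are described and not tested against each other. The neuroendocrine gene Chga was at 0.060 to 4.84 TPM in the 79 and at 0.15 to 479 TPM in the 36. Tgm4, a secreted product of prostate luminal cells, was at 0.64 to 16895 TPM in the 79 and at 0.77 to 2469 TPM in the 36. In the 36, Chga left a gap between 4 libraries at or under 2.55 TPM (W1118, W1050, W1915 and W1790) and 32 at or above 21.2 TPM. The number in a library's label has no stated meaning, and numbers under 4000 belong to 21 of the 36, the 4 among them, and to 3 of the 79. Values within the ranges of this number are given for some of the comparisons of the sets of libraries or of the 4. They are also given for the slopes on Chga in the 36. The lists of cell type markers and the ratio of Cdt1 to Gmnn are not split by it. Of the shares within complexes, only those of Rfc2, Rpa1 and Gins1 are. Of the 79, only 3 have a number under 4000, too few for a fit.

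All 42 replication genes were expressed. None was listed at 0 in any library, 27 reached 1 TPM in every library and 41 did in most libraries, against 27.8% of all genes in the table. Pcna, the sliding clamp (chr2:132249162-132253314, GRCm38), had the highest level, with a median of 82 TPM, a lowest of 8.25 and a highest of 309 TPM (mean 100.8 ± 76.1 TPM, SD over all libraries). The lowest level was that of Orc1, the origin-recognition subunit that cycles with the cell cycle, at a median of 0.99 TPM (0.030 to 7.28). The SD of log2(TPM + 1) over all libraries had a median of 1.21 over the 42, and of 0.63 over the genes tested. Within the 79 these medians were 0.77 and 0.44, but within the 36 the spread of the members was the smaller, at 0.40 beside 0.50, and without the 4 libraries under the gap in Chga at 0.38 beside 0.43.

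**Figure D1:**
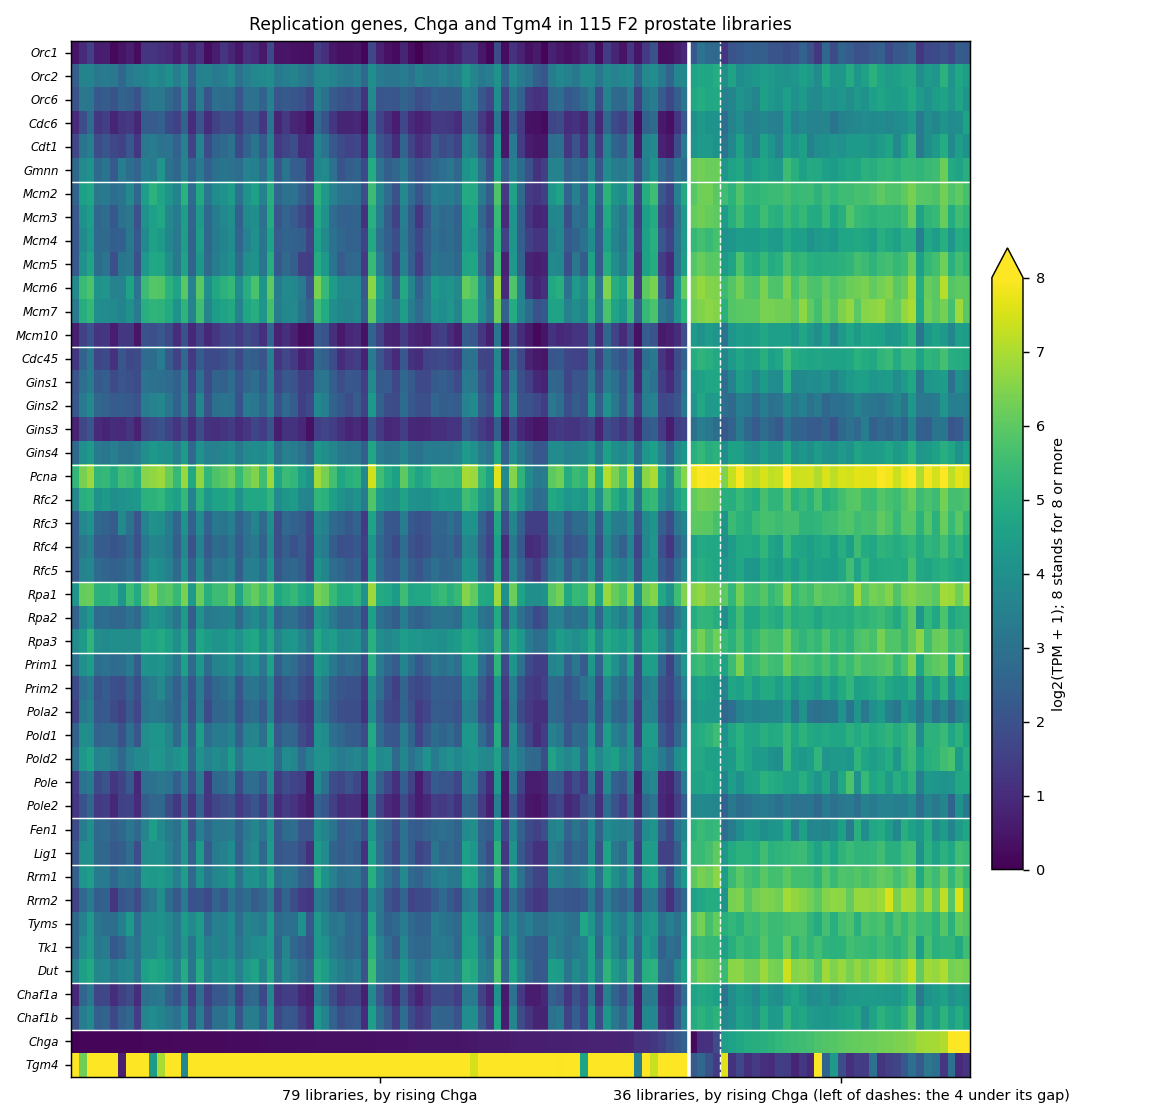
Heat map of log2(TPM + 1) for the 42 replication genes, Chga and Tgm4 (rows, grouped by role) in every library (columns, the 79 then the 36, each ordered by Chga). The 42 rows brighten together to the right of the solid line, and Rrm2 is dim in the 4 libraries left of the dashed line.

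Among the licensing factors, Orc2 was the most abundant, with a median of 11.9 TPM and a range of 3.36 to 34.6. It had the smallest spread of the 42, with an SD of log2 values of 0.63. Cdc6 (median 3.14 TPM, 0.17 to 24) and Cdt1 (7.19 TPM, 0.41 to 36.2), which load the helicase, had log2 SDs of 1.25 and 1.24. Gmnn, the inhibitor of Cdt1, had a median of 9.67 TPM and ran from 1.25 to 77.3 TPM. Orc6 had a median of 6.96 TPM.

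In the MCM ring, Mcm6 (median 39 TPM, 0.78 to 137) and Mcm7 (28.9 TPM, 3.06 to 126) were the most abundant subunits and Mcm4 the least (12.95 TPM, 1.33 to 49.5). Mcm10, which is not part of the ring but helps to activate it, was lower, with a median of 2.33 TPM and a range of 0.12 to 34.2. With SDs of log2 values of 1.49, 1.48 and 1.53, Mcm6, Mcm5 and Mcm10 were among the 5 most variable of the 42. The 1 TPM added before the log narrows this SD for genes of low level, so the ranking depends partly on level. Orc1, with an SD of 0.79, ran 243-fold from lowest to highest, against 175-fold for Mcm6. Mcm7 has a near-identical processed pseudogene, Gm5487 (99% identity over 90% of the transcript), so the level of Mcm7 is uncertain. Cdc45 had a median of 4.25 TPM (0.40 to 48) and a log2 SD of 1.53, and the 4 GINS subunits ran from Gins3 (median 2.06 TPM) to Gins4 (14.1 TPM, 3.62 to 38.96). Gins4 and Gins2 were among the 5 least variable (log2 SDs of 0.69 and 0.77).

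The clamp loader subunits had medians from 8.17 TPM (Rfc4) to 29.5 TPM (Rfc2). Rpa1, the large subunit of the single-strand binding protein, had a median of 49.7 TPM with a lowest of 14.15 and a highest of 119 TPM (log2 SD of 0.78, 1 of the 5 smallest). Pold2, a small subunit of polymerase delta, was the most abundant of the primase and polymerase genes (15.7 TPM, 2.75 to 51.2, log2 SD of 0.72), while Pole2, a small subunit of polymerase epsilon, was the least (3.13 TPM, 0.30 to 16). Lig1, the ligase that seals Okazaki fragments, had a median of 13.5 TPM (1.14 to 64.4) and the flap nuclease Fen1 9.66 TPM (1.97 to 42.9). Chaf1b (median 9.50 TPM, 0.54 to 54) exceeded its CAF-1 partner Chaf1a (5.68 TPM, 0.49 to 35).

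Nucleotide supply held the most variable gene of all 42. Rrm2, the small subunit of ribonucleotide reductase (chr12:24708241-24714146), had a median of 6.02 TPM, a lowest of 1.2 and a highest of 182 TPM, with a log2 SD of 1.94. Its partner Rrm1 (chr7:102441695-102469771) had a median of 15.9 TPM (1.96 to 97.6) and a log2 SD of 1.29. Dut, which removes dUTP, was the most abundant of these genes at a median of 21.2 TPM (3.09 to 165). Tyms (13.9 TPM) and Tk1 (14.1 TPM), the synthetic and the salvage route to thymidylate, lay close together.

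Every one of the 42 genes had a higher median in the 36 libraries than in the 79. The ratio of these medians, 36 to 79, was 4.95 at the median over the 42. Over the 14319 genes tested that had such a ratio, it was 1.203 at the median. How many of all genes had a higher median in the 36 is not given. For Pcna the values were 8.25, 43.1 and 197 TPM (lowest, median and highest) in the 79 and 87.3, 181 and 309 TPM in the 36. For Mcm6 they were 0.78, 16.9 and 108.7 TPM in the 79 and 29.9, 66.5 and 137 TPM in the 36. These ranges overlapped, as they did for 40 of the 42 genes. Cdc45 did not overlap, at 0.40, 2.51 and 11.4 TPM in the 79 and 11.9, 28.2 and 48 TPM in the 36, and neither did Rrm2, at 1.2, 3.95 and 15.4 TPM in the 79 and 15.7, 85.98 and 182 TPM in the 36. Of the 14621 genes compared, 2.09% had all of the 36 above all of the 79. For both genes the gap was narrow and its upper edge was library W4419. Among libraries with a label number of 4000 or more (76 of the 79 and 15 of the 36), the medians of all 42 were also higher in the 36. No value over all genes is given for that range. In bulk tissue, a larger share of cycling cells and more RNA per cycling cell cannot be told apart.

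**Figure D2:**
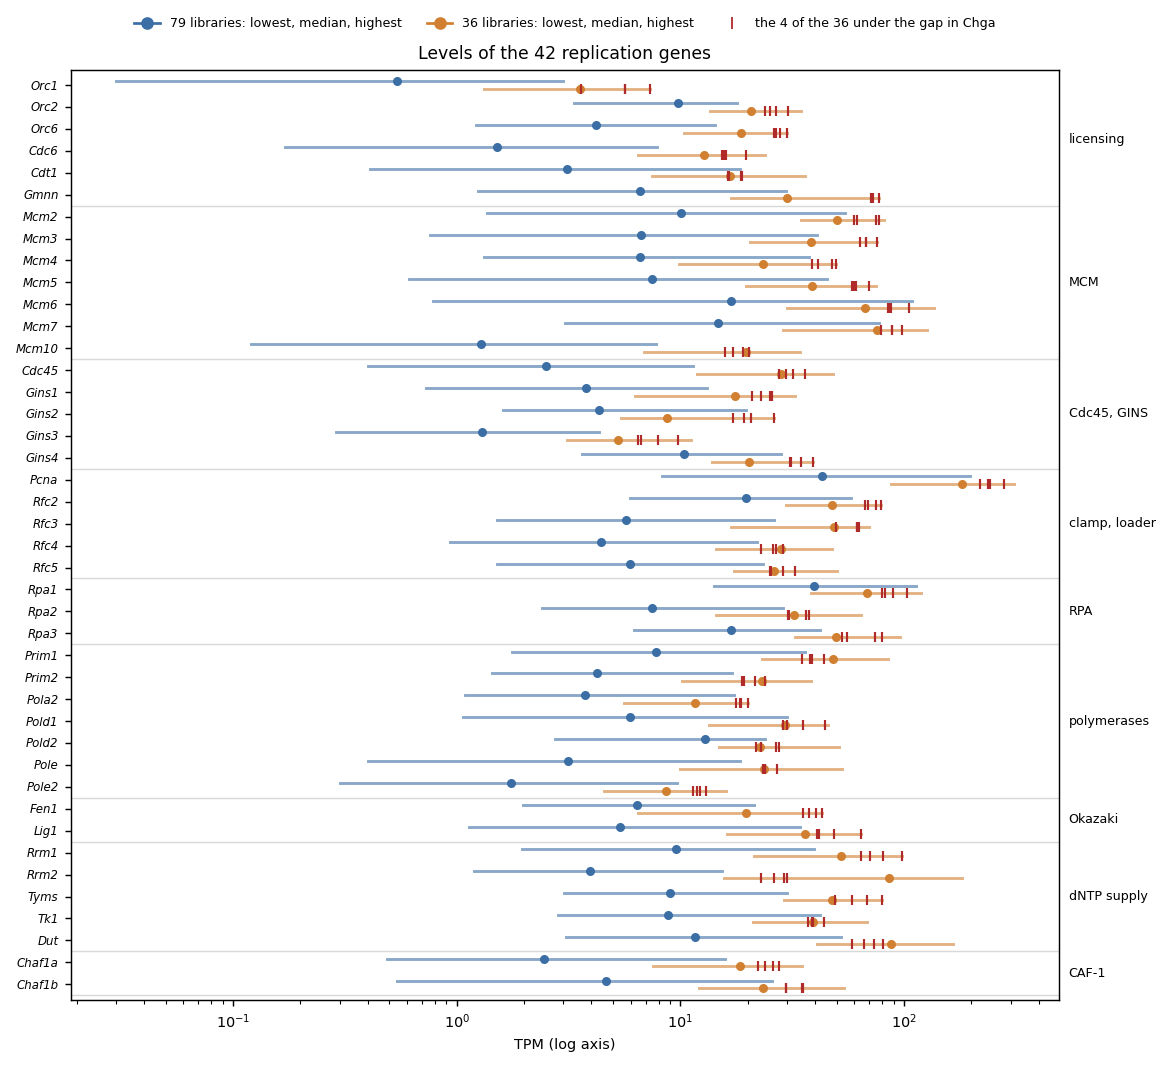
Lowest, median and highest TPM (log axis) of each replication gene in the 79 libraries (blue) and the 36 (orange), with the 4 of the 36 under the gap in Chga as red ticks. Medians are higher in the 36 for all 42 genes, and the red ticks lie at the right of the orange range for Gmnn, Gins2, Mcm4 and Fen1 but at its left end for Rrm2.

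Ratios within a library do not depend on how TPM was scaled, and that of the 2 subunits of ribonucleotide reductase differed between the sets of libraries. In the 79, Rrm2 was below Rrm1 in every library, with a ratio of 0.216, 0.417 and 0.770 (lowest, median and highest). Among the 32 libraries of the 36 with Chga above its gap, the ratio was 0.740, 1.74 and 3.05, and it exceeded 1 in 31. The exception was W4419, at 0.740, and the next lowest was 1.18. In the 4 libraries under the gap the ratio was between 0.299 and 0.425, inside the range of the 79, although Rrm1 itself was at 64.3, 80.6, 70.5 and 97.6 TPM in them (in the order W1118, W1050, W1915 and W1790), against a median of 49.6 TPM in the other 32. Rrm2 was at 22.9, 26.3, 29.9 and 29.1 TPM in the same libraries, against 15.7, 87.9 and 182 TPM (lowest, median and highest) in the other 32. All of the 4 lay below all of the 32 but W4419, the next lowest being 57.5 TPM. W4419 was set aside here after its value was seen, and no share over all genes is given for this. The median of Rrm2 in the 4 was 0.315 times that in the 32, a ratio that ranked 6.80% from the lowest among the genes tested. Among the 17 of the 32 numbered under 4000, as the 4 are, Rrm2 ran from 57.5 to 182 TPM and the ratio from 1.297 to 3.05. In the 15 numbered 4000 or more the ratio was 0.740, 1.72 and 2.96 (lowest, median and highest), and in the 76 of the 79 in that range 0.216, 0.417 and 0.770.

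For 36 of the 42, the median of the 4 libraries was above that of the other 32. The ratio of these medians was 1.38 at the median over the 42 and 1.39 over all genes tested, so the members as a group did not stand apart from other genes here. Gmnn was at 72.8, 77.3, 71.2 and 72.1 TPM in W1118, W1050, W1915 and W1790, against 16.9, 28 and 73.2 TPM in the 32, so that only 1 of the 32 reached this level or more. Gins2 was at 17.1, 26.3, 19.2 and 20.6 TPM, against 5.41, 8.22 and 17.9 TPM. Mcm4 (38.8 to 49.5 TPM against 9.90 to 31.4) and Fen1 (35.2 to 42.9 TPM against 6.44 to 32.9) had all of the 4 above all of the 32, which held for 13.7% of the genes compared, while no member had all of the 4 below all of the 32 (2.91% of genes). With median-of-ratios scaling this was so for Mcm4 alone and, with TPM rescaled without the 20 genes of largest share, for neither. In the 17 of the 32 numbered under 4000, Gmnn ran from 20.4 to 73.2 TPM, Gins2 from 5.41 to 17.2, Mcm4 from 9.90 to 31.4 and Fen1 from 8.61 to 32.9 TPM. In the same 4 libraries the summed neuroendocrine list (8 genes) was at 4.20 to 32.2 TPM, with Scg2, Syp and Snap25 under 1 TPM throughout, against 113.5 to 875 TPM in the 32. This list includes Chga, by which the 4 were set apart, so part of the contrast was fixed by that choice. The luminal list (8 genes, Pbsn, Spink1 and Msmb among those under 1 TPM throughout the 4) was at 728 to 1386 TPM against 4.74 to 2779 TPM, the stroma list (8 genes) at 541 to 1850 against 12.5 to 822 TPM, the immune list (8 genes, Cd3e and Cd79a among those under 1 TPM throughout) at 36.5 to 91.3 against 4.56 to 57.7 TPM, the endothelial list (4 genes) at 19.7 to 52.7 against 1.97 to 22.4 TPM, the erythroid list (3 genes) at 286 to 2308 against 14.6 to 2813 TPM (medians 1466 and 308), and the share of TPM in the top 20 genes at 48.9% to 54.5% against 57.5% to 75.3%. Their part in these levels was not tested.

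The slope on Chga was fitted with limma across all genes averaging 1 TPM or more, as log2(TPM + 1) of the gene per log2(TPM + 1) of Chga, each set of libraries on its own. In the 36 libraries, 5 of the 42 genes passed an adjusted p of 0.05, 1 higher and 4 lower with more Chga, where 9.94% of all 14611 genes were called higher and 24.2% lower. The share of the 42 called was below that of all genes in both directions, and the median slope of the 42 was -0.03, as was that of all genes. Rrm2 was the gene that rose, with a slope of 0.28 ± 0.05 (SE, n = 36, limma adjusted p = 5.1e-05). Against Chga it had r = 0.684 (permutation p = 3e-05) and rho = 0.501 (permutation p = 0.00222), with r = 0.544 when the 2 libraries with Chga farthest from its median were dropped. Falling with Chga were Gmnn (slope -0.13 ± 0.05, adjusted p = 0.0266), Gins2 (-0.13 ± 0.04, 0.0100), Mcm4 (-0.11 ± 0.04, 0.0177) and Mcm3 (-0.10 ± 0.04, 0.0300). With median-of-ratios scaling Gmnn (limma adjusted p = 0.0812) and Mcm3 (0.0509) lost the call, and with TPM rescaled without the 20 genes of largest share Mcm4 (0.126) and Mcm3 (0.151) did, while Rrm2 and Gins2 kept it under both. With ranks none of the 5 kept the call (limma adjusted p = 0.0938 for Rrm2 and 0.987 for Gins2). In 1 fit over all libraries, and without the 2 libraries farthest in Chga, only Rrm2 kept it. For Gmnn, Gins2, Mcm4 and Mcm3 r lay between -0.49 and -0.43, while rho lay between -0.05 and 0.16 and r without the 2 farthest libraries between -0.26 and -0.17.

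**Figure D3:**
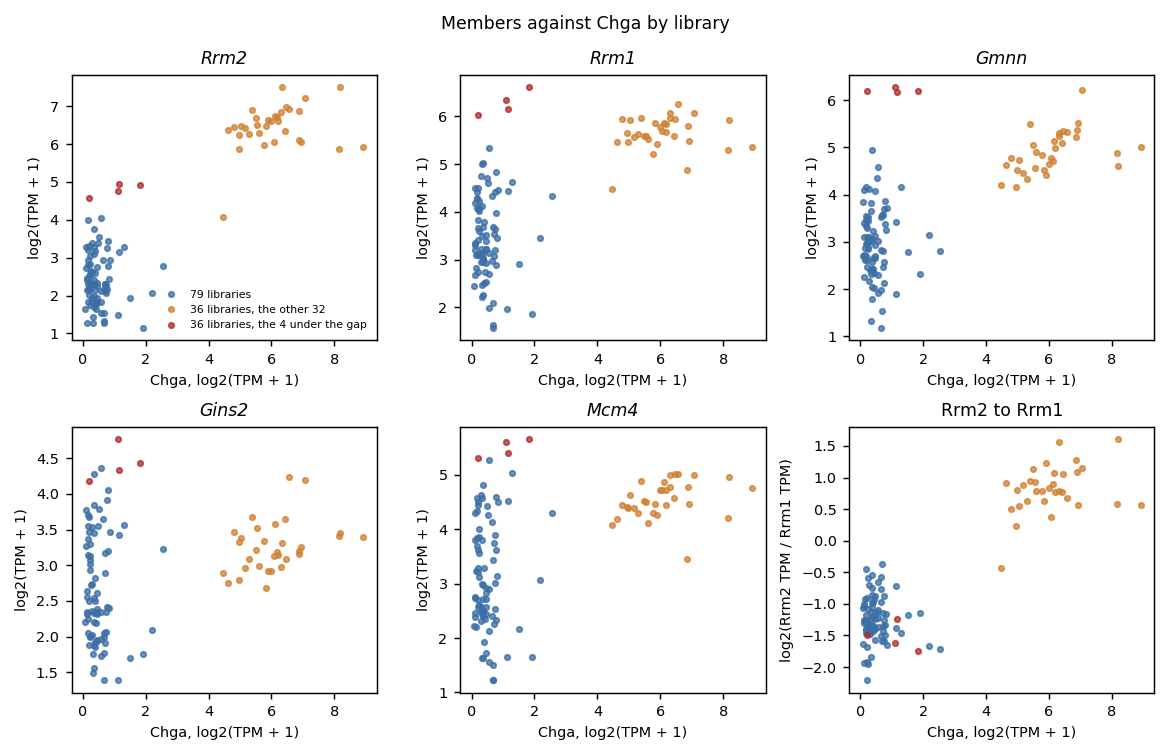
Log2(TPM + 1) of Rrm2, Rrm1, Gmnn, Gins2 and Mcm4 and the log2 ratio of Rrm2 to Rrm1 (vertical axes) against log2(TPM + 1) of Chga, 1 point per library. The 4 libraries of the 36 under the gap in Chga (red) are high for Gmnn, Gins2 and Mcm4 and lie among the 79 (blue) for the ratio.

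These calls rested on the 4 libraries under the gap. Without them (a setting chosen after the data were seen), the slope of Rrm2 was 0.16 ± 0.10 (n = 32, limma adjusted p = 0.304) and its r 0.278 (permutation p = 0.121). The slopes of Gmnn, Gins2, Mcm4 and Mcm3 turned positive (0.20, 0.12, 0.095 and 0.093), with adjusted p from 0.0603 to 0.368. Cdc6 (0.19 ± 0.05, limma adjusted p = 0.0204), Mcm2 (0.18 ± 0.05, 0.0138), Rfc2 (0.19 ± 0.05, 0.0235) and Rpa1 (0.28 ± 0.06, 0.00670) were called higher instead, and no member lower, where 9.11% of genes were called higher and 0.198% lower.

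Label number split the relation further. Among the 15 libraries of the 36 numbered 4000 or more, none of them under the gap, r with Chga was above 0 for all 42 genes, with a median of 0.554. It was highest for Gmnn (r = 0.906, permutation p = 4e-05, rho = 0.875, r = 0.867 without the 2 farthest libraries) and Cdc45 (r = 0.872, permutation p = 1e-05, the smallest that 100000 permutations give) and lowest for Orc1 (r = 0.072, permutation p = 0.795). Among the 17 numbered under 4000 with Chga above the gap, the median over the 42 was -0.071 with 18 above 0, Gmnn had r = 0.142 (permutation p = 0.583) and Rrm2 r = -0.148 (permutation p = 0.569). Rrm2 had r = 0.548 (permutation p = 0.0182) in the 15 and r = 0.773 (permutation p = 0.00013) in all 21 numbered under 4000. The difference between the number ranges was not tested. No share over all genes is given for these counts of r above 0, so they are not read as a trait of the 42. Over all 32 libraries above the gap, the median slope on Chga was 0.094 for the 42 and 0.068 for all genes. With the range as a term of the fit over the 36 libraries, the 5 calls kept their direction and stayed under 0.05, with adjusted p from 6.7e-05 to 0.0327.

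**Figure D4:**
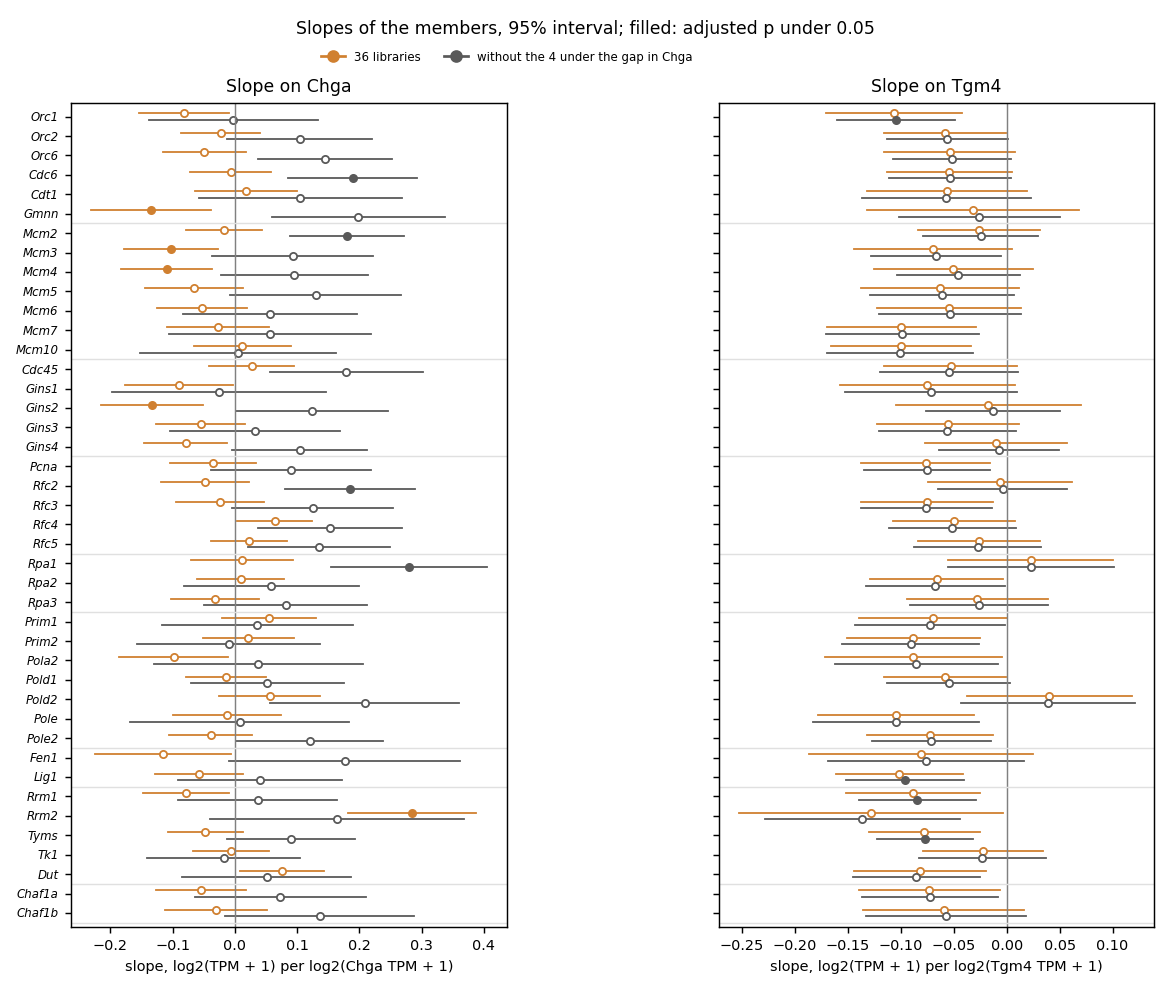
Slope of each replication gene on Chga (left) and on Tgm4 (right), in log2(TPM + 1) per log2(TPM + 1) of the marker, with 95% intervals, in the 36 libraries (orange) and without the 4 under the gap in Chga (grey). Filled points passed an adjusted p of 0.05, and the Chga slopes of Gmnn, Gins2, Mcm3 and Mcm4 change sign between the 2 fits.

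In the 79 libraries, Chga itself separated into 72 at or under 0.81 TPM and 7 at or above 1.19 TPM, which were given a term in the fit. No replication gene was called by limma in either direction, where 1.52% of 14621 genes were called higher and 0.00684% lower. None had an unadjusted p under 0.05, where 9.71% of genes were higher and 0.15% lower. The smallest adjusted p was 0.672, as for Rfc4 (slope -0.32, 95% interval -1.003 to 0.37). Over the 72, r with Chga ran from -0.141 to 0.038, and over the 7 from -0.291 to 0.322, with no exact permutation p under 0.459 in the latter. The intervals were wide, as for Rrm2 (slope -0.13, 95% interval -0.72 to 0.46). The scaling of TPM mattered here. With median-of-ratios scaling 30 of the 42 were called lower with more Chga and none higher (3.74% and 2.44% of all genes), the median slope of the 42 moving from -0.12 to -0.81 and that of all genes from 0.18 to 0.00. The median of the 42 lay below that of all genes on both scales.

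The slope on Tgm4 gave no call among the 42. In the 79, Tgm4 separated into 20 libraries at or under 2469 TPM and 59 at or above 2901 TPM, and limma called 0 of the 42 where 13.8% of genes were called higher and 2.15% lower. At an unadjusted p under 0.05 there was 1, Pold2 (slope 0.10 ± 0.04, adjusted p = 0.0979), where 28.4% of all genes were higher and 4.47% lower. Slopes were above 0 for 40 of the 42 (24.7% of all slopes were below 0), with a median of 0.07 beside 0.04 over all genes, but for 17 with median-of-ratios scaling, for 2 with ranks and for 5 without the 2 libraries farthest in Tgm4. Within the sub-parts, r with Tgm4 was above 0 for all 42 in the 20 libraries (median 0.297) but for 4 in the 59 (median -0.122). No share over all genes is given for these counts, and 0 of the 42 had an unadjusted permutation p under 0.05 in the 20. Among the 59, r ran from -0.393 to 0.257, and 2 of the 42 had an unadjusted permutation p under 0.05. Tyms had the lowest r there (r = -0.393, rho = -0.394, unadjusted permutation p = 0.00204 for r, r = -0.406 without the 2 farthest libraries). The slope of Tyms over the 79 was -0.02 with a limma adjusted p of 0.770. Without the term for the 20 and 59 (chosen after the data were seen), 21 of the 42 were called lower with more Tgm4 and none higher, where 26.7% of all genes were called lower and 12.2% higher.

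In the 36, Tgm4 was at or under 18.7 TPM in 34 libraries and high in W4419 (195 TPM) and W4517 (2469 TPM). Limma called 0 of the 42, where 2.18% of genes were called higher and 0.568% lower (2.74% in all). At an unadjusted p under 0.05, 18 were lower and 0 higher, where 8.62% of all genes were lower and 8.62% higher. Of the 42 slopes 40 were below 0, as were 52.7% of all slopes, with a median of -0.06 beside -0.00 over all genes. Closest to the threshold were Lig1 (slope -0.10 ± 0.03, adjusted p = 0.0536) and Orc1 (-0.11 ± 0.03, adjusted p = 0.0590). Both were called lower with a pseudocount of 0.1, with median-of-ratios scaling and with both markers in 1 fit (0.684%, 0.308% and 0.787% of genes lower). Lig1 was called with genes of at least 5 TPM (0.898%), and Orc1 and Tyms with TPM rescaled without the 20 genes of largest share (0.151%). For Lig1 r was -0.512 (permutation p = 0.00343), rho -0.346 and r without the 2 farthest libraries -0.338. W4419 held the lowest value of the 36 for Rrm2, Cdc45 and Pcna. With the range of the label number as a term limma again called 0 of the 42, with 2.18% of genes higher and 0.431% lower. Without W4419 and W4517 the median slope of the 42 was 0.00, 21 of the 42 slopes were above 0 and none was called (0.0274% of all genes higher and 0 lower). Without the 4 libraries under the gap in Chga (also chosen after the data were seen), Orc1, Lig1, Rrm1 and Tyms were called lower with more Tgm4 (adjusted p of 0.0145, 0.0243, 0.0460 and 0.0266), where 2.4% of genes were called lower and 6.87% higher.

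The replication genes moved together in both sets of libraries, with higher r in the 79. Over the 861 pairs of the 42, r of log2(TPM + 1) had a median of 0.936 in the 79, where all pairs of expressed genes had 0.424, and of 0.553 in the 36, where all pairs had 0.141. By label number, the median was 0.939 in the 76 of the 79 numbered 4000 or more, 0.691 in the 15 of the 36 in that range and 0.448 in the 21 under it. These values are descriptions, since all pairs share the same libraries and the same TPM totals. The tightest pair in the 79 was Mcm3 and Mcm5 (r = 0.993), and the 7 MCM genes had a median of 0.980 among themselves. In the 36 the tightest pair was Fen1 and Pola2 (r = 0.924), both on chromosome 19, followed by Mcm3 and Mcm5 (0.908) and Pcna and Rrm1 (0.904). In the 79, the lowest medians with the other members were those of Tyms (0.784), Orc2 (0.785) and Pold2 (0.787), and the lowest pair was Pold2 and Tyms (r = 0.439).

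In the 36, Rrm2 stood lowest, with a median r of 0.162 with the other members, followed by Pold2 (0.333) and Rpa3 (0.357). Without the 4 libraries under the gap in Chga, the median of Rrm2 was 0.577, and the lowest were those of Rpa3 (0.289), Rpa1 (0.340) and Pold2 (0.359). Rrm1 and Rrm2 had r = 0.928 in the 79, 0.172 in the 36 and 0.821 without the 4. The gene most like Rrm2 was Dut over the 36 (r = 0.747) and Rfc3 without the 4 (r = 0.866). Rrm2 and Gins2 had r = -0.332 and Rrm2 and Gmnn r = -0.228 in the 36, but 0.325 and 0.476 without the 4 libraries under the gap in Chga, and 0.880 and 0.874 in the 79. Pole went against Rpa1 (r = -0.288) and against Pold2 (r = -0.275) in the 36, and without the 4 libraries these were -0.326 and -0.275.

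**Figure D5:**
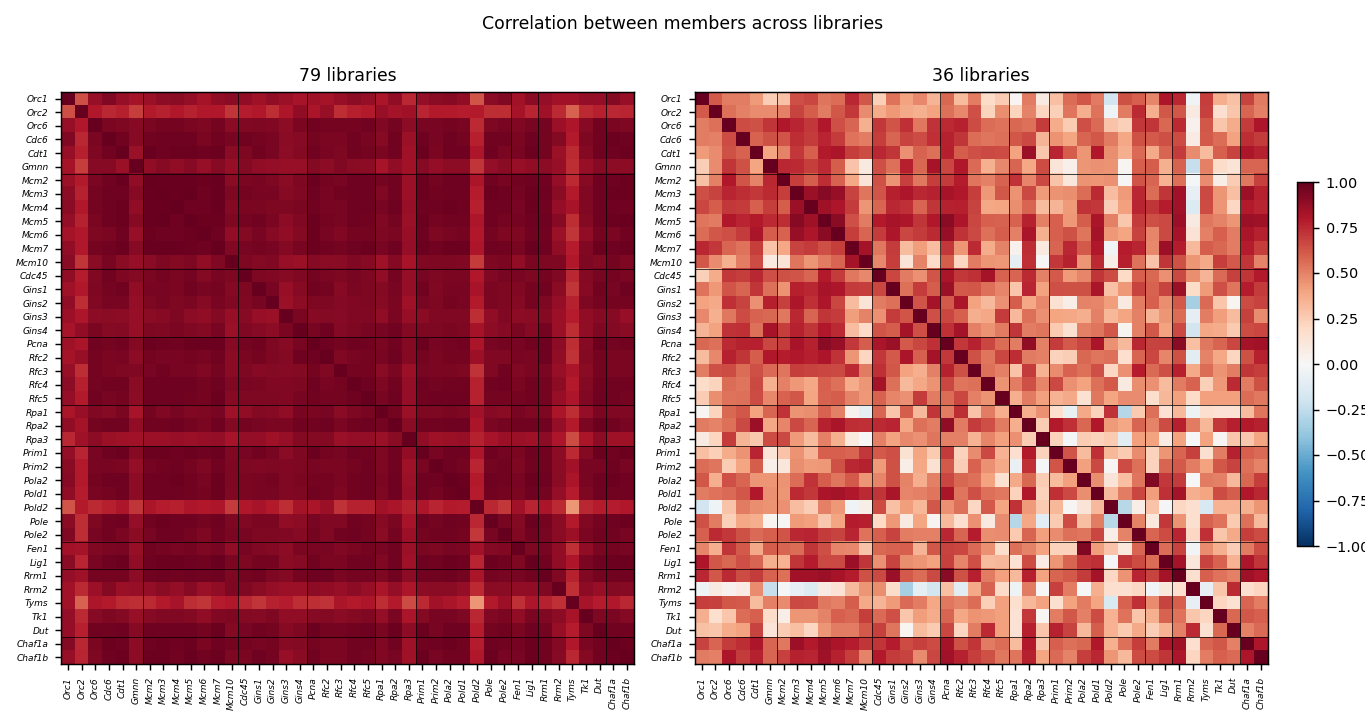
Pearson r between the 42 replication genes across the 79 libraries (left) and the 36 (right), ordered by role, from -1 (blue) to 1 (red). Nearly all pairs are dark red in the 79, with paler lines for Orc2, Pold2 and Tyms, and the pale line with blue cells in the 36 is Rrm2.

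Within complexes, the make-up by TPM differed between the sets of libraries for some subunits. Rfc2 was 41.1%, 52.8% and 66.5% (lowest, median and highest) of the summed RFC2-5 level in the 79 and 25.6%, 30.8% and 40.7% in the 36, so that its share did not overlap. The gap was narrow. Its lower edge was a library under the gap in Chga (40.7%) and its upper edge a library of the 79 numbered under 4000 (41.1%). Among libraries numbered 4000 or more, the edges were 39.6% in the 36 and 44.2% in the 79. Rfc3 took 10.95%, 16.9% and 35.4% in the 79, and 20.8%, 30.9% and 38% in the 36. Rpa1 was 61.9% of RPA1-3 in the 79 at the median (47.5% to 73.6%) and 43.2% in the 36 (33% to 62.4%), with Rpa2 at 12.4% (9.28% to 16.2%) and 22.5% (9.27% to 29.5%). Gins1 was 19.2% of GINS1-4 in the 79 (9.69% to 26.2%) and 33.3% in the 36 (15.1% to 40.6%). In the MCM ring, Mcm6 was 28.5% of MCM2-7 in the 79 at the median (9.06% to 35.2%) and 22.7% in the 36 (17.3% to 29.2%), Mcm3 10.4% (7.45% to 14.6%) and 13.1% (10.47% to 17.5%), Mcm4 10.4% (7.66% to 18.2%) and 8.17% (5.71% to 12.1%), and Mcm2 15% (10.9% to 19.96%) and 16.6% (12.8% to 34.2%). Among libraries numbered 4000 or more, the median share was 52.8% in the 79 and 30.4% in the 36 for Rfc2, 61.8% and 40.7% for Rpa1, and 19.1% and 33.7% for Gins1. Cdt1 was 0.502 times Gmnn at the median of the 79 (0.112 to 1.496) and 0.546 times in the 32 (0.234 to 0.986), while the 4 libraries under the gap in Chga lay between 0.226 and 0.264.

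Some members share exon bases with a gene on the other strand, and the TruSeq RNA V2 kit does not mark strand. The overlap covers 78.8% of the exon bases of Fen1 (with the antisense transcript Gm10143, median 0.26 TPM), 67.3% of Gins2 (with Gse1, 4.56 TPM), 52.5% of Chaf1a (with Ubxn6, 19.3 TPM) and 29.8% of Orc2 (with Nif3l1, 6.31 TPM). It is smaller but with a far more abundant partner for Rfc4, part of the RFC2-5 sum (12.7%, with Eif4a2, 231 TPM against 8.17 TPM), and for Fen1 with Tmem258 (5.37%, 89.8 TPM). More abundant partners also overlap Orc6 (6.93%, with Vps35, 39.4 TPM against 6.96 TPM) and Cdc45 (5.96%, with Ufd1, 20.9 TPM against 4.25 TPM). Cdc45 is a gene whose ranges in the 79 and the 36 did not overlap, by a narrow gap. Reads from such a gene and its partner cannot be told apart, so the levels of these members are uncertain.

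A wider list of 46 replication genes outside the 42 (further ORC and polymerase subunits, the kinase that fires origins, fork protection, clamp unloading and nucleotide metabolism) had 45 genes tested. On Chga in the 36, limma called 3 higher and 4 lower, smaller shares than the 9.94% and 24.2% of all genes, the steepest being Pold4 (slope -0.20 ± 0.07, adjusted p = 0.0145), Samhd1, which degrades nucleotides (-0.15 ± 0.04, 0.00430), and Atad5, which unloads the clamp (0.12 ± 0.04, 0.0247). None of these was called without the 4 libraries under the gap in Chga, where Pold4 had a slope of 0.22 (limma adjusted p = 0.160). On Tgm4 in the 36 it called 3 lower, among them Dtl (-0.14 ± 0.03, 0.0146) and Clspn (-0.13 ± 0.03, 0.0310), and 0 higher, where 0.568% of all genes were called lower, and neither of these was called without W4419 and W4517 (limma adjusted p of 0.474 and 0.513). In the 79 it called 0 on either marker, but with median-of-ratios scaling 24 of the 45 on Chga, and 5 with TPM rescaled without the 20 genes of largest share.

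Other markers moved with the replication genes in the 79. Mcm2, taken as an example, rose with the summed immune list (4.67 to 157 TPM, r = 0.607, rho = 0.667, permutation p = 1e-05 for each, adjusted p = 5.67e-05 over 17 relations). All 42 members had r above 0 with that list, and also with the stroma, endothelial and erythroid lists. The endothelial and erythroid lists did not pass with Mcm2 (permutation test, adjusted p = 0.235 and 0.309). No share over all genes is given for these counts. Mcm2 rose with the stroma list (163 to 6174 TPM, r = 0.335, permutation p = 0.00258, adjusted p = 0.00877) and fell with the luminal list (312 to 60797 TPM, r = -0.334, permutation p = 0.00226, adjusted p = 0.00877). It fell most closely with the share of TPM in the top 20 genes, which lowers the TPM of all other genes (r = -0.718 in the 79 and -0.718 in the 36, permutation p = 1e-05 for each). In the 36 no tested list of cell type markers passed (adjusted p of 0.235 or more for r), the basal list, which separated there, being left untested. The neuroendocrine list had 3 of 8 genes under 1 TPM throughout the 79, where its sum ran from 0.74 to 62.7 TPM and gave r = 0.089 with Mcm2 (permutation p = 0.435). The part of these markers in the levels above was not tested.

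On the marker side, 4 of the 6 neuroendocrine genes tested rose with Chga in the 79, most of all Snap25, Scg2 and Eno2 (slopes 1.84, 1.202 and 1.039), and all 6 tested did in the 36, with Snap25, Chgb and Insm1 steepest (0.85, 0.69 and 0.67). Of all genes, 1.52% were called higher in the 79 and 9.94% in the 36. In the 36, limma called lower with more Chga 1 of 7 luminal genes (Krt18, slope -0.66, adjusted p = 0.0245), 1 of 4 basal (Krt14, -0.15), 1 of 8 stroma (Col1a1, -0.43), 3 of 5 immune (Itgam, Ptprc and Csf1r) and 2 of 4 endothelial genes (Cdh5 and Tie1), and none of these lists had a gene called higher. The same fit called 24.2% of all genes lower. The luminal, basal and stroma shares were near or under that, and all of these lists are short. The median slope was -0.03 for the luminal list, -0.05 for the basal, -0.25 for the stroma, -0.24 for the immune and -0.19 for the endothelial list, beside -0.03 over all genes. None of the named genes, neuroendocrine ones included, was called without the 4 libraries under the gap in Chga. Without them the slopes of Snap25, Chgb and Insm1 were 0.21, 0.40 and 0.22 (limma adjusted p from 0.124 to 0.182), and those of Krt18 and Col1a1 turned positive (0.82 and 0.39, adjusted p of 0.128 and 0.382).

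With Tgm4 in the 79, 3 of 6 luminal genes tested were called higher, among them Fgl1 and Krt18 (slopes 0.63 and 0.09), 3 of 8 stroma genes higher, among them the muscle genes Des and Myh11 (0.30 and 0.19), and 1 lower (Col1a1, -0.23), and 1 of 5 immune genes lower (Itgam, -0.12, adjusted p = 0.0494). Over all genes, that fit in the 79 called 13.8% higher and 2.15% lower. The fit in the 36 called 2.18% of all genes higher and 0.568% lower. There, 2 of 6 luminal, 2 of 4 basal, 2 of 8 stroma and 4 of 7 seminal vesicle genes were called higher and none lower. Among them were Fgl1 (0.48), Krt15 (0.28), Myh11 (0.44) and Svs5 (0.54). None of these 4 was called without W4419 and W4517, where limma adjusted p ran from 0.474 to 0.878 and the slopes of Krt15 and Myh11 were -0.10 and -0.08.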

How the data were processed

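Prostate RNA of transgene-positive (TRAMP x WSB/EiJ) F2 mice was used, with nothing in the labels to mark batches or to tie libraries to single mice. The authors depleted ribosomal RNA, prepared libraries with the TruSeq RNA V2 kit, trimmed reads with Trimmomatic, mapped them to a diploid C57BL/6 and WSB transcriptome with Bowtie2 and quantified them with RSEM, and they deposited TPM. The submitters' processing notes name CASAVA 1.8.2, Bowtie2 2.2.5, RSEM 1.2.20 and GRCm38. The annotation is not given in the sources used here. TPM keeps no depth, so no count test or counting interval was used, and no column went unmapped.

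Identifiers were named with GENCODE M21 (98.8% of 45699 genes found), and promoters came from RefSeq. Values were analysed as log2(TPM + 1) for genes averaging 1 TPM or more. Libraries were split where 2 normal components gave a BIC more than 10 below that of 1, with Ashman D over 2 and at least 6 libraries in each. Slopes were fitted with limma 3.58.1 (lmFit, eBayes with trend, R 4.3.3), adjusted by Benjamini-Hochberg over all genes tested. P-values of r and rho came from two-sided permutation tests (100000 resamples, exact for 7 libraries), for 42 members in each set of libraries. Limma was tested on simulated data with 14622 genes. For the slope on Chga in the 36 libraries, it recovered 98 of 100 seeded slopes of 1 SD of the gene per SD of the marker and 21 of 100 of 0.5 SD.

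The members and lists were chosen with earlier results of these data known. Values are given for the most abundant member of each role, the 5 most and 5 least variable, those called in a fit, the 3 with the lowest median r, Chga, Tgm4 and the 3 steepest called genes of other lists. Other members were named after their values were seen. Some genes that the rule names in other lists are not reported here. Markers were 8 neuroendocrine, 8 luminal, 4 basal, 8 stroma, 8 immune, 4 endothelial, 7 seminal vesicle and 3 erythroid genes. Near-identical copies (95% identity, 80% of a transcript) came from BLAST+ 2.17.0. Permutations used scipy 1.17.1 in Python 3.11.15, components scikit-learn 1.9.0, and figures matplotlib 3.10.9. Alternatives were another pseudocount, scaling or filter, ranks, both markers in 1 fit, 1 fit over all libraries and fits without the 2 farthest libraries.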

Additional observations from a re-analysis of the deposited data

How the results depend on the processing

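No paired analysis was possible because all libraries belong to a single group. The 79 and 36 libraries stayed the same with all genes or median-of-ratios scaling, and 1 library moved with genes of at least 5 TPM. The median r between members, 0.936 in the 79 and 0.553 in the 36, became 0.893 and 0.414 with median-of-ratios scaling, 0.907 and 0.426 with the rescaled TPM, 0.931 and 0.523 with rho, and 0.931 and 0.552 with a pseudocount of 0.1. Rescaling TPM without the 20 genes of largest share moved the median level over the members to 31.1 TPM. For the slope on Chga in the 79, 0 members called lower became 30 with median-of-ratios scaling (3.74% of all genes) and 3 with the rescaled TPM (0.492%), and 0 other replication genes became 24 and 5. The fit over all libraries called 1 member higher and 3 other replication genes (12.2% of all genes higher and 22.4% lower), and that without a term for the 7 libraries (added after the data were seen) 1 other replication gene (18.7% and 0.137%).

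For the slope on Chga in the 36, 1 member higher and 4 lower became 3 and 2 with median-of-ratios scaling, 7 and 2 with the rescaled TPM, 0 and 0 with ranks, 1 and 0 in the fit over all libraries and without the 2 farthest libraries, and 4 and 0 without the 4 libraries under the gap in Chga (added). Of all genes, 9.94% higher and 24.2% lower became 14.7% and 19.2%, 21% and 16%, 1.2% and 0.0548%, 12.2% and 22.4%, 3.91% and 4.61%, and 9.11% and 0.198% under these settings in the same order. The 7 other replication genes became 4 without a filter, 0 with ranks, 3 in the fit over all libraries, and 1 without either the 2 farthest or the 4 libraries. With ranks, the slopes of Gmnn and Mcm4 reversed to 0.16 and 0.043. Without the 4 libraries, those of Gmnn, Gins2, Mcm4 and Mcm3 reversed to 0.20, 0.12, 0.095 and 0.093.

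For the slope on Tgm4 in the 79, 0 members lower became 1 with ranks (Tyms, with 14.9% of all genes) and 21 without the term for the 20 libraries (added, 26.7%). The 0 other replication genes became 1 with a pseudocount of 0.1, with median-of-ratios scaling and with the rescaled TPM, 2 in the fit over all libraries and 20 without that term. In the 36, 0 members lower became 2 with a pseudocount of 0.1, with either scaling and with both markers in the fit, 1 with genes of at least 5 TPM and 4 without the 4 libraries, with 0 to 2.4% of all genes lower over the alternatives. The 3 other replication genes became 1 with the rescaled TPM, 0 with ranks and without the 2 farthest libraries, 5 with both markers and 13 without the 4 libraries. The cause of these shifts was not tested. TPM keeps no depth, so what depth limits cannot be stated.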
